A study of Oryctolagus cuniculus with 9 samples.

Results

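This account follows the genes of the splicing machinery and of nuclear RNA binding in rabbit (Oryctolagus cuniculus) cells labelled primary parathyroid cells. Members were chosen by gene name: the SR proteins (SRSF), the heterogeneous nuclear ribonucleoproteins (HNRNP), the SF3A and SF3B subunits, the small nuclear ribonucleoproteins (SNRP), the LSM proteins, the 4 CLK kinases, and SFPQ, NONO, PSPC1, CCNL1, CCNL2, PAXBP1, OGT, TRA2A, TRA2B, SON and LUC7L3. The rule found 76 of the 19511 loci in the expression table, and where a name had several loci the locus with the highest mean was taken. The rule uses gene names alone, but it was written with earlier results of these data known. Of its named genes, 3 (OGT, PAXBP1 and CCNL1) had been seen there among the largest falls with gallic acid. Their falls are given as descriptions of these libraries and are not independent evidence, and member counts for gallic acid include them. Of the 76, 2 are joined loci that hold a neighbouring gene as well (SRSF1 with VEZF1, and SNRPN with SNURF), and their values cannot be assigned to the splicing gene alone.

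The study had 3 groups of 3 RNA-seq libraries, all from cells labelled wild type. The control group was untreated and carries the label day 0. The H/R group was exposed to hypoxia for 6 h and then to reoxygenation for 6 h, a culture model of ischemia and reperfusion. The GA+H/R group was pretreated with gallic acid, a plant phenol (1200 µM, 24 h), and then taken through the H/R protocol. Gallic acid without hypoxia was not analysed here. Nothing in the labels says whether the 3 libraries of a group came from separate animals or cultures, or whether the groups spent the same time in culture, so p-values measure only the spread between these libraries.

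As background, introns are removed from pre-mRNA by the spliceosome, which is built from small nuclear RNAs and proteins. Sm proteins form a ring around most of these RNAs, LSM proteins form a related ring around U6 RNA, and the SF3A and SF3B subunits hold U2 RNA at the branch site. SR proteins bind exons and help recruit the machinery, CLK kinases phosphorylate them, and many hnRNPs oppose them or shape the choice of splice site. Much of this regulation feeds back on the regulators: several SR protein and CLK transcripts carry poison exons or retained introns, which values per locus do not show.

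Expression was deposited as FPKM (fragments per kilobase of transcript scaled to library size), without read counts, so sequencing depth is unknown. The FPKM totals differed between groups, from 1648012 to 1696488 across the controls, against 730117 to 752065 after H/R and 467499 to 516231 with gallic acid added, and the median locus fell by 1.25 (H/R minus control) and by 0.50 (GA+H/R minus H/R) on the log2 scale. Each library was therefore divided by its median ratio to the mean library, which gives what is called scaled FPKM here. In what follows, rose and fell mean higher or lower relative to the median locus at an adjusted p below 0.05 (limma, all loci together), log2 changes are of scaled FPKM plus 1, and the change in the deposited FPKM is printed beside them. Adding 1 understates the change of low genes, and values of different genes are not compared with each other. Control 1 stood apart from the other controls (r = 0.985 and 0.983 with controls 2 and 3, which had r = 0.997 with each other), and member results whose call rests on it, or whose called value it moves by over 1.5 times, are given without it. Fibroblast markers (10 of 10 in the table) had summed levels from 117103 to 181580 FPKM across the controls, against 20025 to 20081 after H/R and 6522 to 6689 with gallic acid added. Parathyroid markers (8 of 10 in the table) summed to 301 to 380 FPKM across the controls, 90.4 to 94.2 after H/R and 39.9 to 43.9 with gallic acid added. Nearly all of that sum was the receptor gene FGFR1, which is not specific to the parathyroid. The parathyroid hormone gene PTH, which defines the cell type, was at or below 0.142 FPKM in every library, and no locus was named CASR or GCM2. These marker levels do not bear out the parathyroid label. In bulk RNA, fewer cells of a type and less RNA per cell cannot be told apart.

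Of the 76 members, 73 passed the filter on low values (3 or more libraries at a scaled FPKM of 1 or higher), and SNRPA, LSM1 and LSM3 did not. In H/R minus control, 23 members rose, 27 fell and 23 did not pass the test. Over all 10956 loci tested, 57.6% passed in this comparison (29.2% higher and 28.4% lower), against 68.5% of the members tested, whose median change was -0.04. With gallic acid added (GA+H/R minus H/R), 12 rose, 18 fell and 43 did not pass, which is 41.1% called beside 33.9% of all loci (18.7% higher and 15.2% lower), with a median of -0.01. In GA+H/R minus control, which holds both differences and shares its libraries with the other comparisons, 29 rose and 31 fell, 82.2% called beside 69.2% of all loci (33.7% higher and 35.5% lower). LSM6 is counted among the 12 and the 29 that rose, and SNRPF among the 23 and the 29. Both passed the filter through groups where they are high, which favoured these rises. The members as a whole thus had no common direction, and the medians of the whole list lay within 0.05 of 0. On the deposited scale nearly all were lower: 3 higher and 64 lower in H/R minus control (4.18% and 86.0% of all loci, 90.2% in either direction), 0 and 60 in GA+H/R minus H/R (1.69% and 64.3%, 66.0% in either direction), and 0 and 67 in GA+H/R minus control (4.1% and 90.1%, 94.2% in either direction). All 3 libraries of the later group lay above, or below, all 3 of the earlier one for 27 and 29 members in H/R minus control (34.1% and 33.0% of all loci, 67.1% together), 18 and 24 in GA+H/R minus H/R (27.4% and 24.5%, 52.0% together) and 30 and 30 in GA+H/R minus control (35.0% and 36.5%, 71.4% together). The median differed between role groups, as the plot of changes by role shows, and the groups are described in turn. Counts within a group are to be read beside the shares over all loci given above.

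**Figure D1:**
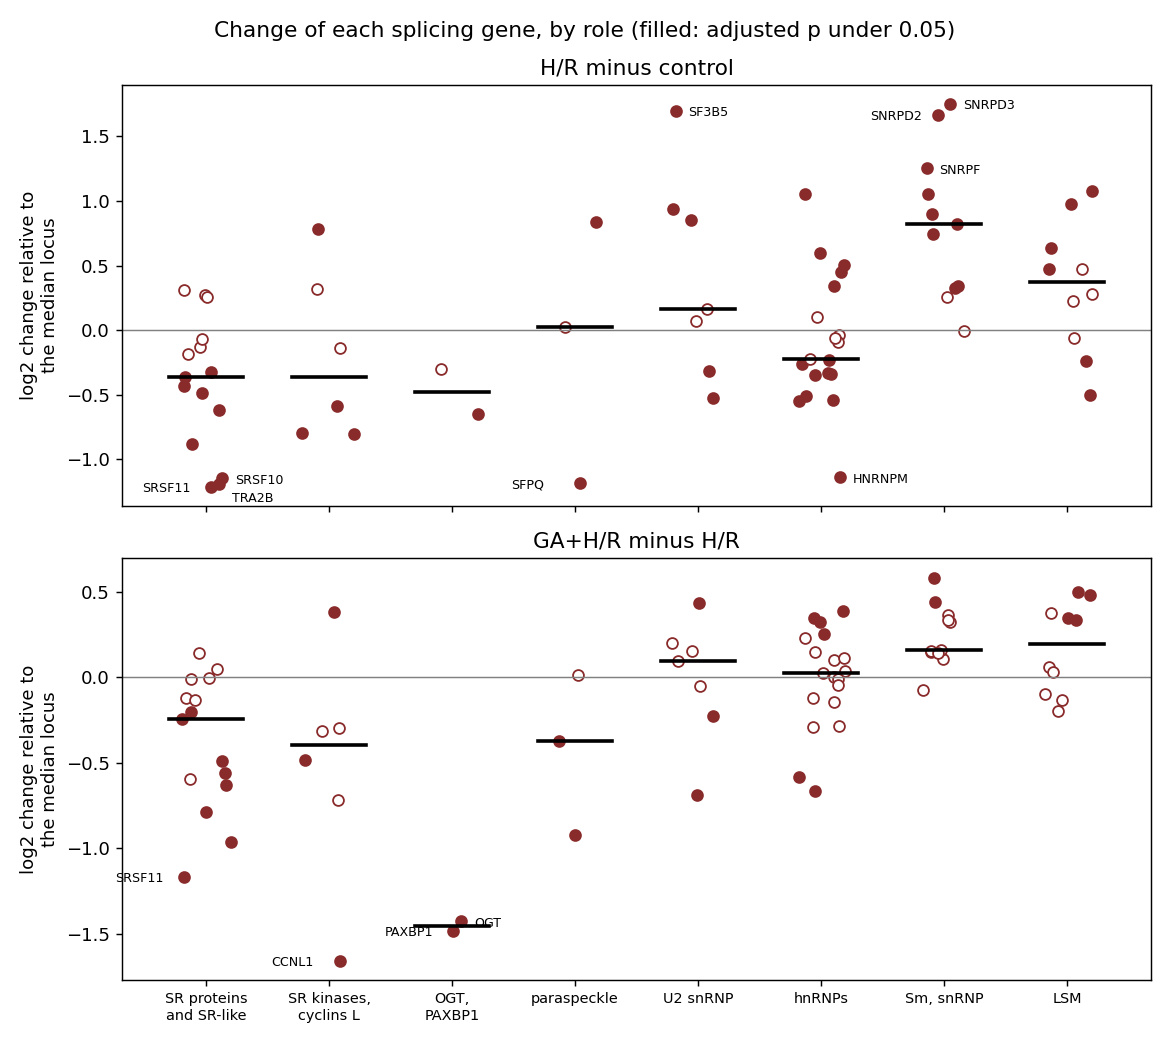
Each point is a member that passed the filter, placed by its role, and the vertical axis is its log2 change in scaled FPKM plus 1. The upper panel is H/R minus control and the lower panel GA+H/R minus H/R; filled points have an adjusted p below 0.05 (limma), black lines are group medians, and the horizontal spread within a group only separates the points. In the upper panel the Sm and snRNP proteins have a median of 0.82 and the SR proteins and SR-like regulators a median of -0.36.

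SR proteins and SR-like regulators, which define exons and recruit the splicing machinery, went down where they passed the test. Of 15 tested, 0 rose and 9 fell in H/R minus control (median -0.36), and 0 rose and 8 fell in GA+H/R minus H/R (median -0.24). Among the 11 SRSF genes alone, 0 rose and 5 fell at the first step, and 0 rose and 6 fell at the second. The other first-step falls were those of TRA2A, TRA2B, SON and LUC7L3, which the rule names one by one. On the deposited scale the medians of the 15 were -1.81 and -0.80. SRSF11, an SR-related protein of nuclear speckles, had scaled FPKM of 1176, 831 and 756 in the controls, 384, 383 and 399 after H/R and 179, 172 and 167 in the GA+H/R libraries. Its 3 groups did not overlap at either step. It fell by 1.22 ± 0.14 (SE, adjusted p = 8.96e-05, -2.67 on the deposited scale) with H/R and fell by 1.17 ± 0.14 (SE, adjusted p = 4.09e-04, -1.82 on the deposited scale) with gallic acid added, each a step of more than 2-fold in scaled FPKM.

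SRSF5, a classical SR protein, read 118, 127 and 122 in the controls, 98.6, 90.7 and 95.4 after H/R and 60.3, 49.6 and 54.03 in the GA+H/R libraries. It fell by 0.36 ± 0.08 (SE, adjusted p = 0.004, -1.81 on the deposited scale) in H/R minus control and fell by 0.79 ± 0.08 (SE, adjusted p = 1.69e-04, -1.43 on the deposited scale) in GA+H/R minus H/R. LUC7L3, related to a yeast U1 snRNP protein, read 163, 139 and 127 in the controls, 109.9, 105 and 101 after H/R and 84.6, 70.5 and 70.1 in the GA+H/R libraries, with no overlap between groups. It fell by 0.43 ± 0.11 (SE, adjusted p = 0.00701, -1.88 on the deposited scale) with H/R and fell by 0.49 ± 0.11 (SE, adjusted p = 0.00781, -1.13 on the deposited scale) with gallic acid added. Under quantile normalization neither SRSF5 (-0.19, adjusted p = 0.0762) nor LUC7L3 (-0.26, adjusted p = 0.0734) was called in H/R minus control. SON, a scaffold of nuclear speckles that is needed to splice weak introns, read 767, 776 and 819 in the controls, 428, 429 and 421 after H/R and 349, 352 and 379 in the GA+H/R libraries. Most of its difference lay between control and H/R, where it fell by 0.88 ± 0.05 (SE, adjusted p = 1.21e-06, -2.34 on the deposited scale), and with gallic acid added it fell by 0.24 ± 0.05 (SE, adjusted p = 0.00629, -0.91 on the deposited scale).

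Other SR-like genes fell with H/R and gave no call with gallic acid. TRA2B, which binds purine-rich exonic enhancers, read 251, 232 and 231 in the controls, 116, 107 and 89.3 after H/R and 118, 84.7 and 109.5 in the GA+H/R libraries. It fell by 1.19 ± 0.13 (SE, adjusted p = 8.17e-05, -2.64 on the deposited scale) with H/R, and its change in GA+H/R minus H/R was -0.01 ± 0.13 (SE, adjusted p = 0.979, -0.66 on the deposited scale). SRSF10, a regulator whose activity depends on its phosphorylation, read 22.3, 21.4 and 19.6 in the controls, 9.69, 8.36 and 8.86 after H/R and 10.3, 9.03 and 10.7 in the GA+H/R libraries. It fell by 1.15 ± 0.10 (SE, adjusted p = 1.73e-05, -2.51 on the deposited scale) with H/R, and its change in GA+H/R minus H/R was 0.14 ± 0.10 (SE, adjusted p = 0.306, -0.42 on the deposited scale). The H/R and GA+H/R libraries overlapped for both genes. TRA2A, the paralog of TRA2B, fell by 0.32 ± 0.12 (SE, adjusted p = 0.043, -1.76 on the deposited scale) with H/R. That call was lost in 6 of the 9 fits that left out a library (adjusted p = 0.0526 to 0.121 leaving out in turn each control, H/R 1, H/R 3 and GA+H/R 1) and under quantile normalization (-0.22, adjusted p = 0.164). Its change with gallic acid was -0.01 ± 0.12 (SE, adjusted p = 0.957, -0.66 on the deposited scale).

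SRSF7 passed the test at the second step and not at the first. This SR protein, which also has a zinc knuckle, read 75.5, 55.4 and 55.8 in the controls, 69.6, 74.8 and 76.96 after H/R and 37.1, 37.98 and 37.1 in the GA+H/R libraries. In H/R minus control it changed by 0.26 ± 0.12 (SE, adjusted p = 0.0873, -1.18 on the deposited scale). Without control 1 it was called higher (0.42, adjusted p = 6.97e-04). Under quantile normalization it was called as well (0.34, adjusted p = 0.0223). In GA+H/R minus H/R it fell by 0.96 ± 0.12 (SE, adjusted p = 4.45e-04, -1.59 on the deposited scale), with no overlap between the groups. SRSF3, the smallest of the classical SR proteins, changed by -0.19 ± 0.11 (SE, adjusted p = 0.157, -1.63 on the deposited scale) in H/R minus control and by -0.12 ± 0.11 (SE, adjusted p = 0.409, -0.77 on the deposited scale) in GA+H/R minus H/R. Without control 1, SRSF3 was lower in H/R than in control (-0.29, adjusted p = 0.00868), as it was with equal FPKM totals (-0.47, adjusted p = 0.00318). To complete the list, SRSF4 (-0.62, deposited -2.04) and the joined locus SRSF1;VEZF1 (-0.49, deposited -1.94) fell in H/R minus control. SRSF2 (0.27), SRSF12 (0.31), SRSF6 (-0.13) and SRSF9 (-0.07) did not pass there. Without GA+H/R 3, SRSF2 was called higher in that comparison (adjusted p = 0.0431). On the deposited scale no SR or SR-like gene had a first-step change above -0.39. At the second step SRSF2 (-0.63, deposited -0.80), SRSF6 (-0.56, deposited -0.90) and SRSF1;VEZF1 (-0.20, deposited -0.85) fell, and the values of SRSF9 (0.05, deposited -0.59) and SRSF12 (-0.59, deposited -0.54) did not pass. The second-step call for SRSF1;VEZF1 was lost in the 6 fits that left out a library of H/R or GA+H/R (adjusted p = 0.0514 to 0.117). SRSF12, listed at 0 in GA+H/R 2 and 3, was called without GA+H/R 1 (-1.12, adjusted p = 0.00838). SRSF2 lay near the filter, at scaled FPKM of 2.66, 2.45 and 2.47 after H/R and 1.24, 0.996 and 1.64 in the GA+H/R libraries.

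The kinases that phosphorylate SR proteins and the L-type cyclins, partners of CDK11 that sit in nuclear speckles, were mixed. Of 6 tested, 1 rose and 3 fell in H/R minus control (median -0.36; -1.75 on the deposited scale), and 1 rose and 2 fell in GA+H/R minus H/R (median -0.40; deposited -0.99). CCNL1, cyclin L1, had scaled FPKM of 693, 423 and 348 in the controls, 257, 281 and 265 after H/R and 78.9, 78.8 and 95.6 in the GA+H/R libraries. Its GA+H/R libraries lay far below all others, and control 1 lay well above controls 2 and 3. It fell by 0.80 ± 0.21 (SE, adjusted p = 0.0108, -2.26 on the deposited scale) with H/R. Without control 1 that log2 change was -0.50 (adjusted p = 0.00398), and under quantile normalization it had no call (-0.62, adjusted p = 0.0679). It fell by 1.66 ± 0.21 (SE, adjusted p = 6.14e-04, -2.30 on the deposited scale) with gallic acid added. The paralog CCNL2 changed by 0.32 ± 0.16 (SE, adjusted p = 0.126, -1.12 on the deposited scale) in H/R minus control, by 0.49 without control 1 (adjusted p = 0.0152). With gallic acid added CCNL2 fell by 0.48 ± 0.16 (SE, adjusted p = 0.0483, -1.11 on the deposited scale), a call lost in 7 of the 9 fits that left out a library (adjusted p = 0.0540 to 0.142 leaving out in turn control 3 and each library of H/R and GA+H/R).

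The CLK kinases did not move together. CLK3 read 20.6, 19.4 and 21.2 in the controls, 34.6, 38.6 and 34.5 after H/R and 42.1, 49.98 and 49.5 in the GA+H/R libraries. It rose by 0.79 ± 0.09 (SE, adjusted p = 9.88e-05, -0.62 on the deposited scale) in H/R minus control and rose by 0.38 ± 0.09 (SE, adjusted p = 0.0122, -0.26 on the deposited scale) in GA+H/R minus H/R, so its direction turns on the deposited scale in both. With equal FPKM totals its second-step call was lost (0.30, adjusted p = 0.0961). CLK1 read 38.5, 22.9 and 23.7 in the controls, 17.6, 18.6 and 17.7 after H/R and 13.8, 13.7 and 15.96 in the GA+H/R libraries. It fell by 0.59 ± 0.18 (SE, adjusted p = 0.0192, -1.99 on the deposited scale) in H/R minus control, with a log2 change of -0.34 without control 1 (adjusted p = 0.0131) and no call without H/R 1 or H/R 3 (adjusted p = 0.0521 and 0.0502). It changed by -0.29 ± 0.18 (SE, adjusted p = 0.233, -0.87 on the deposited scale) in GA+H/R minus H/R. It was called lower there without control 1 (-0.30, adjusted p = 0.0207) and in a fit of only those 2 groups (-0.32, adjusted p = 0.0259). CLK4 read 53.7, 34.6 and 33.3 in the controls, 26.4, 17.7 and 23.9 after H/R and 12.2, 9.05 and 20.7 in the GA+H/R libraries. Its spread was wide: it fell by 0.80 ± 0.29 (SE, adjusted p = 0.0436, -2.21 on the deposited scale) in H/R minus control but lost the call in 6 of the 9 fits that left out a library (adjusted p = 0.0535 to 0.139 leaving out in turn controls 1 and 2, each H/R library and GA+H/R 1), with a change of -0.56 without control 1. It changed by -0.72 ± 0.29 (SE, adjusted p = 0.091, -1.27 on the deposited scale) in GA+H/R minus H/R, and was called lower without GA+H/R 3 (-1.02, adjusted p = 0.0202). CLK2 gave no call at either step (-0.14 and -0.31; deposited -1.51 and -0.87). It was called lower without GA+H/R 2 at the second step (-0.43, adjusted p = 0.033) and with equal FPKM totals at the first step (-0.41, adjusted p = 0.0356). In control 1 the scaled FPKM of CCNL1, CLK1, PAXBP1, CLK4 and SRSF11 was 1.80, 1.65, 1.61, 1.58 and 1.48 times the mean of controls 2 and 3.

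OGT and PAXBP1 had, with CCNL1 and SRSF11, the largest falls of the members with gallic acid added. OGT, the enzyme that attaches O-GlcNAc to nuclear and cytosolic proteins and whose transcript holds a detained intron regulated by O-GlcNAc, read 763, 631 and 656 in the controls, 424, 444 and 431 after H/R and 157, 159.8 and 164 in the GA+H/R libraries. The 3 groups did not overlap, and replicates lay close together in H/R and GA+H/R. OGT fell by 0.65 ± 0.07 (SE, adjusted p = 6.93e-05, -2.11 on the deposited scale) with H/R and fell by 1.43 ± 0.07 (SE, adjusted p = 4.41e-06, -2.08 on the deposited scale) with gallic acid added. PAXBP1, a nuclear protein that binds PAX transcription factors, read 119.9, 77.9 and 71.5 in the controls, 74.3, 67.9 and 70.1 after H/R and 22.2, 28.5 and 23.6 in the GA+H/R libraries. Controls and H/R overlapped, and GA+H/R lay below both. Its change was -0.30 ± 0.18 (SE, adjusted p = 0.181, -1.75 on the deposited scale) in H/R minus control (-0.06 without control 1, adjusted p = 0.65, and -0.59, adjusted p = 0.0421 with equal FPKM totals), and it fell by 1.48 ± 0.18 (SE, adjusted p = 4.59e-04, -2.08 on the deposited scale) in GA+H/R minus H/R. Among members, 4 had a call and a log2 change of 1 or more in GA+H/R minus H/R (SRSF11, CCNL1, OGT and PAXBP1, all lower), 5.48% beside 3.19% of all loci, and 3 of the 4 had been named from earlier results.

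**Figure D2:**
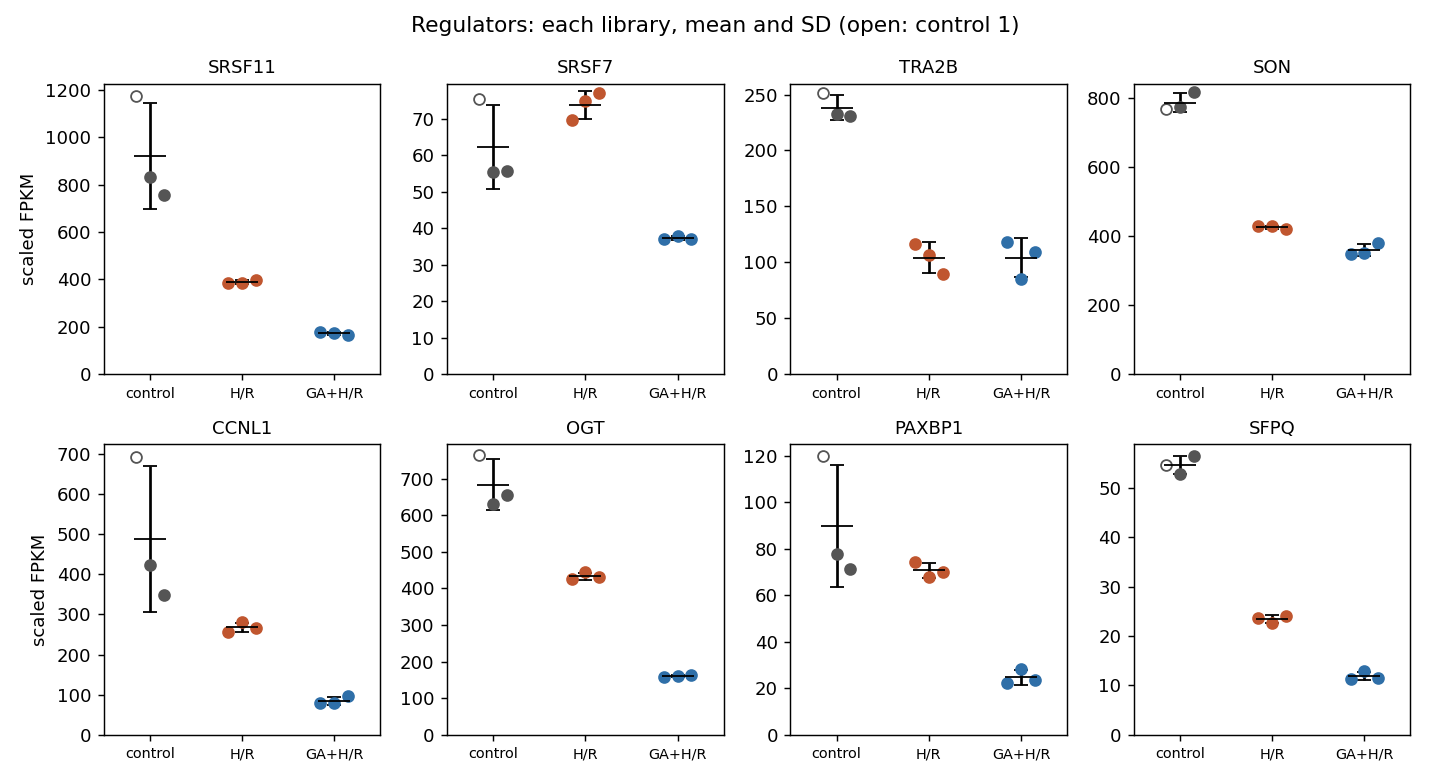
Each panel is a regulator named in the text, with scaled FPKM on the vertical axis from 0 and the 3 groups along the horizontal axis. Points are libraries (control 1 open), the long line is the mean and the bars are 1 SD (n = 3). The OGT libraries of GA+H/R lie at 157, 159.8 and 164, below H/R at 424, 444 and 431.

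SFPQ, NONO and PSPC1 are related RNA-binding proteins of paraspeckles, nuclear bodies built on a long noncoding RNA, and each followed its own course. SFPQ read 54.6, 52.8 and 56.5 in the controls, 23.6, 22.6 and 24.1 after H/R and 11.2, 12.9 and 11.6 in the GA+H/R libraries, with no overlap between any groups. It fell by 1.19 ± 0.08 (SE, adjusted p = 3.40e-06, -2.61 on the deposited scale) in H/R minus control and fell by 0.92 ± 0.08 (SE, adjusted p = 7.16e-05, -1.47 on the deposited scale) in GA+H/R minus H/R. NONO, its usual partner in heterodimers, read 135, 124 and 129 in the controls, 132, 136 and 126 after H/R and 129, 139 and 129.7 in the GA+H/R libraries, and all 3 groups overlapped. Its changes were 0.02 ± 0.06 (SE, adjusted p = 0.76, -1.43 on the deposited scale) and 0.02 ± 0.06 (SE, adjusted p = 0.864, -0.64 on the deposited scale), so the sign flips on the deposited scale at both steps and with equal FPKM totals at the first (-0.26, adjusted p = 0.0461). Under quantile normalization the first was called higher (0.20, adjusted p = 0.0263). PSPC1 read 15.3, 14.3 and 17.05 in the controls, 28.7, 28.97 and 28.04 after H/R and 18.7, 24.3 and 23.00 in the GA+H/R libraries. It rose by 0.84 ± 0.11 (SE, adjusted p = 2.10e-04, -0.55 on the deposited scale) with H/R and fell by 0.37 ± 0.11 (SE, adjusted p = 0.0305, -0.97 on the deposited scale) with gallic acid added; the second call was lost in 4 of the 9 fits that left out a library (adjusted p = 0.0710 to 0.0848 leaving out in turn each H/R library and GA+H/R 1).

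The U2 snRNP subunits that recognise the branch site split by gene. Of 7 tested, 3 rose and 2 fell in H/R minus control (median 0.17; deposited -1.25), and 1 rose and 2 fell in GA+H/R minus H/R (median 0.09; deposited -0.53). SF3B1, the subunit that clamps the branch site helix, read 195, 160.0 and 155 in the controls, 115, 118 and 118 after H/R and 75.8, 71.00 and 70.2 in the GA+H/R libraries. It fell by 0.53 ± 0.09 (SE, adjusted p = 8.65e-04, -1.98 on the deposited scale) in H/R minus control and fell by 0.69 ± 0.09 (SE, adjusted p = 5.97e-04, -1.33 on the deposited scale) in GA+H/R minus H/R, with groups that did not overlap. SF3B3, which is bound to SF3B1 in the same complex, fell by 0.32 ± 0.08 (SE, adjusted p = 0.00607, -1.76 on the deposited scale) with H/R, a call lost under quantile normalization (-0.20, adjusted p = 0.0511). With gallic acid added SF3B3 fell by 0.23 ± 0.08 (SE, adjusted p = 0.0469, -0.87 on the deposited scale), but that call was lost in 7 of the 9 fits that left out a library (adjusted p = 0.0526 to 0.150 leaving out in turn control 3 and each library of H/R and GA+H/R).

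Other subunits of the same complex rose relative to the median locus. SF3B5 read 5.23, 3.97 and 6.11 in the controls, 19.02, 20.4 and 16.6 after H/R and 26.1, 24.3 and 15.6 in the GA+H/R libraries, and rose by 1.70 ± 0.20 (SE, adjusted p = 1.19e-04, 0.39 on the deposited scale) in H/R minus control. On the deposited scale that increase did not pass (adjusted p = 0.0894), and the change with gallic acid added was 0.20 ± 0.20 (SE, adjusted p = 0.478, -0.42 on the deposited scale). At the first step SF3B2 (0.94, deposited -0.49) and SF3B4 (0.85, deposited -0.51) rose as well. SF3B6, which contacts the branch site adenosine, read 25.1, 26.9 and 26.1 in the controls, 28.2, 31.5 and 28.5 after H/R and 40.6, 43.3 and 36.4 in the GA+H/R libraries. It changed by 0.17 ± 0.09 (SE, adjusted p = 0.135, -1.25 on the deposited scale) in H/R minus control and rose by 0.43 ± 0.09 (SE, adjusted p = 0.00567, -0.21 on the deposited scale) in GA+H/R minus H/R. SF3A1 gave no call at either step (0.07 and 0.09; deposited -1.33 and -0.53).

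The hnRNPs, abundant proteins that coat nascent transcripts, went in both directions. So did all loci tested: 29.2% rose and 28.4% fell in H/R minus control, and 18.7% and 15.2% in GA+H/R minus H/R. Of 19 tested, 5 rose and 9 fell in H/R minus control (median -0.22; deposited -1.53), and 4 rose and 2 fell in GA+H/R minus H/R (median 0.03; deposited -0.60). Under quantile normalization the counts in H/R minus control were 6 and 5, and with equal FPKM totals 2 and 11. HNRNPM, a splicing regulator, read 45.9, 36.6 and 42.4 in the controls, 18.9, 17.3 and 18.5 after H/R and 15.5, 15.02 and 13.9 in the GA+H/R libraries. It fell by 1.14 ± 0.10 (SE, adjusted p = 1.70e-05, -2.55 on the deposited scale) in H/R minus control, and its change in GA+H/R minus H/R was -0.28 ± 0.10 (SE, adjusted p = 0.0546, -0.87 on the deposited scale). It was called lower without control 1 (-0.29, adjusted p = 0.0262) or without control 2 (-0.29, adjusted p = 0.0373). HNRNPA1, which represses many exons, read 31.9, 29.3 and 29.5 in the controls, 66.7, 65.8 and 59.6 after H/R and 63.7, 73.5 and 69.7 in the GA+H/R libraries. It rose by 1.06 ± 0.08 (SE, adjusted p = 7.40e-06, -0.37 on the deposited scale) in H/R minus control, and its change in GA+H/R minus H/R was 0.10 ± 0.08 (SE, adjusted p = 0.35, -0.54 on the deposited scale). HNRNPA2B1, a close relative of HNRNPA1, read 171, 129 and 142 in the controls, 113, 117 and 118 after H/R and 70.9, 75.3 and 72.4 in the GA+H/R libraries, so that relative to the median locus, though not on the deposited scale, this pair differed in direction. It fell by 0.33 ± 0.09 (SE, adjusted p = 0.0147, -1.78 on the deposited scale) in H/R minus control and fell by 0.66 ± 0.09 (SE, adjusted p = 0.00101, -1.31 on the deposited scale) in GA+H/R minus H/R. Its first change was -0.21 without control 1 (adjusted p = 0.0154) and had no call under quantile normalization (-0.16, adjusted p = 0.223).

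Further hnRNPs are given by their log2 changes. In H/R minus control, HNRNPUL1 (0.60, deposited -0.85), HNRNPA0 (0.50, deposited -0.89), HNRNPL (0.45, deposited -0.998) and HNRNPAB (0.34, deposited -1.11) rose, each with the opposite sign on the deposited scale. With equal FPKM totals HNRNPA0 (0.23, adjusted p = 0.0563), HNRNPL (0.17, adjusted p = 0.116) and HNRNPAB (0.05, adjusted p = 0.65) had no call. HNRNPLL (-0.55, deposited -1.98), HNRNPC (-0.54, deposited -1.97), HNRNPD (-0.51, deposited -1.67), HNRNPU (-0.35, deposited -1.80) and HNRNPH1 (-0.34, deposited -1.80) fell. The change of HNRNPU was -0.18 without control 1 (adjusted p = 0.0436). Its call was lost without any one H/R library (adjusted p = 0.0652 to 0.0943). Under quantile normalization neither HNRNPU (-0.13, adjusted p = 0.478) nor HNRNPH1 (-0.11, adjusted p = 0.356) was called. At the second step HNRNPAB (0.39, deposited -0.27), HNRNPA3 (0.35, deposited -0.22), HNRNPF (0.32, deposited -0.34) and HNRNPK (0.25, deposited -0.41) rose, again with the opposite sign on the deposited scale, while HNRNPH1 (-0.58, deposited -1.24) fell. With equal FPKM totals HNRNPA3 (0.27, adjusted p = 0.0964), HNRNPF (0.24, adjusted p = 0.125) and HNRNPK (0.17, adjusted p = 0.189) lost these calls. The call for HNRNPA3 was lost without H/R 3 (adjusted p = 0.0575). The call for HNRNPK was lost without H/R 1, H/R 3 or GA+H/R 1 (adjusted p = 0.0679 to 0.0745) and under quantile normalization (adjusted p = 0.177). HNRNPD, which was not called at this step (-0.29, deposited -0.61), was called lower without control 1 (-0.28, adjusted p = 0.0374). HNRNPF, which recognises G-rich elements, read 239, 204 and 202 in the controls, 184, 182 and 182 after H/R and 231, 229.5 and 226 in the GA+H/R libraries. It fell by 0.23 ± 0.07 (SE, adjusted p = 0.0178, -1.68 on the deposited scale) in H/R minus control. That change was -0.14 without control 1 (adjusted p = 0.00852), and had no call under quantile normalization (-0.05, adjusted p = 0.551). Its GA+H/R libraries lay above controls 2 and 3 and below control 1. GA+H/R minus control was 0.09 ± 0.07 (SE, adjusted p = 0.238, -2.02 on the deposited scale) with all libraries and 0.18 (adjusted p = 0.00144, higher) without control 1.

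The Sm and snRNP proteins, the structural core of the spliceosomal particles, were higher relative to the median locus after H/R, with a deposited median below 0. Of 11 tested, 9 rose and 0 fell in H/R minus control (median 0.82). The 9 include SNRPF, which passed the filter through H/R and GA+H/R, and the joined locus of SNRPN and SNURF. The call for that joined locus was lost without control 2 or without H/R 2 (adjusted p = 0.0518 to 0.0597). Under quantile normalization 7 rose and 0 fell, as with equal FPKM totals. On the deposited scale 3 were higher and 6 lower (median -0.37). Among the 7 proteins of the Sm ring, 6 rose, SNRPF among them, and SNRPD1 did not pass (0.26, deposited -1.12). With gallic acid added, 2 of the 11 rose and 0 fell (median 0.16), beside 0 higher and 5 lower on the deposited scale (median -0.38).

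SNRPD2, a subunit of the ring, read 14.2, 17.5 and 18.1 in the controls, 52.03, 52.8 and 59.7 after H/R and 82.4, 90.1 and 75.7 in the GA+H/R libraries. It rose by 1.67 ± 0.11 (SE, adjusted p = 3.41e-06, 0.26 on the deposited scale) in H/R minus control and rose by 0.58 ± 0.11 (SE, adjusted p = 0.00421, -0.07 on the deposited scale) in GA+H/R minus H/R, with groups that did not overlap. SNRPD3, which pairs with SNRPB in the ring, read 13.2, 11.6 and 11.9 in the controls, 37.1, 43.3 and 50.7 after H/R and 53.9, 58.3 and 51.3 in the GA+H/R libraries. It rose by 1.75 ± 0.12 (SE, adjusted p = 3.55e-06, 0.36 on the deposited scale) in H/R minus control, and its change in GA+H/R minus H/R was 0.32 ± 0.12 (SE, adjusted p = 0.0632, -0.32 on the deposited scale). Without H/R 3 it was called higher (0.43, adjusted p = 0.0251). SNRPF read 0.745, 1.04 and 0.999 in the controls, 4.08, 3.81 and 2.96 after H/R and 3.25, 3.24 and 3.60 in the GA+H/R libraries, so it passed the filter through H/R and GA+H/R, where it is high. It rose by 1.25 ± 0.13 (SE, adjusted p = 3.81e-05, 0.34 on the deposited scale) in H/R minus control, which the filter favoured. These 3 genes, SNRPD2, SNRPD3 and SNRPF, were the members whose call in H/R minus control was higher on the deposited scale too. In the deposited FPKM itself SNRPD2 was 27.9, 31.8 and 31.9 in control and 34.8, 35.4 and 40.1 in H/R.

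Among the other ring proteins, SNRPE (1.05, deposited -0.21), SNRPG (0.82, deposited -0.37) and SNRPB (0.74, deposited -0.68) rose in H/R minus control, with the sign reversed on the deposited scale. SNRPE read 4.15, 4.07 and 4.97 in the controls, 9.67, 11.03 and 9.90 after H/R and 17.1, 11.9 and 11.01 in the GA+H/R libraries, where GA+H/R overlapped H/R. Proteins specific to a particle also rose: the U1 protein SNRPC (0.90, deposited -0.36) and the U2 protein SNRPA1 (0.33, deposited -0.93), which had no call with equal FPKM totals (0.08, adjusted p = 0.526) or under quantile normalization (0.16, adjusted p = 0.13). SNRPB2, the U2 protein that binds a stem loop of the RNA, read 4.50, 4.83 and 5.44 in the controls, 4.84, 4.92 and 4.90 after H/R and 7.47, 7.09 and 6.42 in the GA+H/R libraries. It gave -0.01 ± 0.10 (SE, adjusted p = 0.967, -1.23 on the deposited scale) in H/R minus control and rose by 0.44 ± 0.10 (SE, adjusted p = 0.00914, -0.11 on the deposited scale) in GA+H/R minus H/R.

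**Figure D3:**
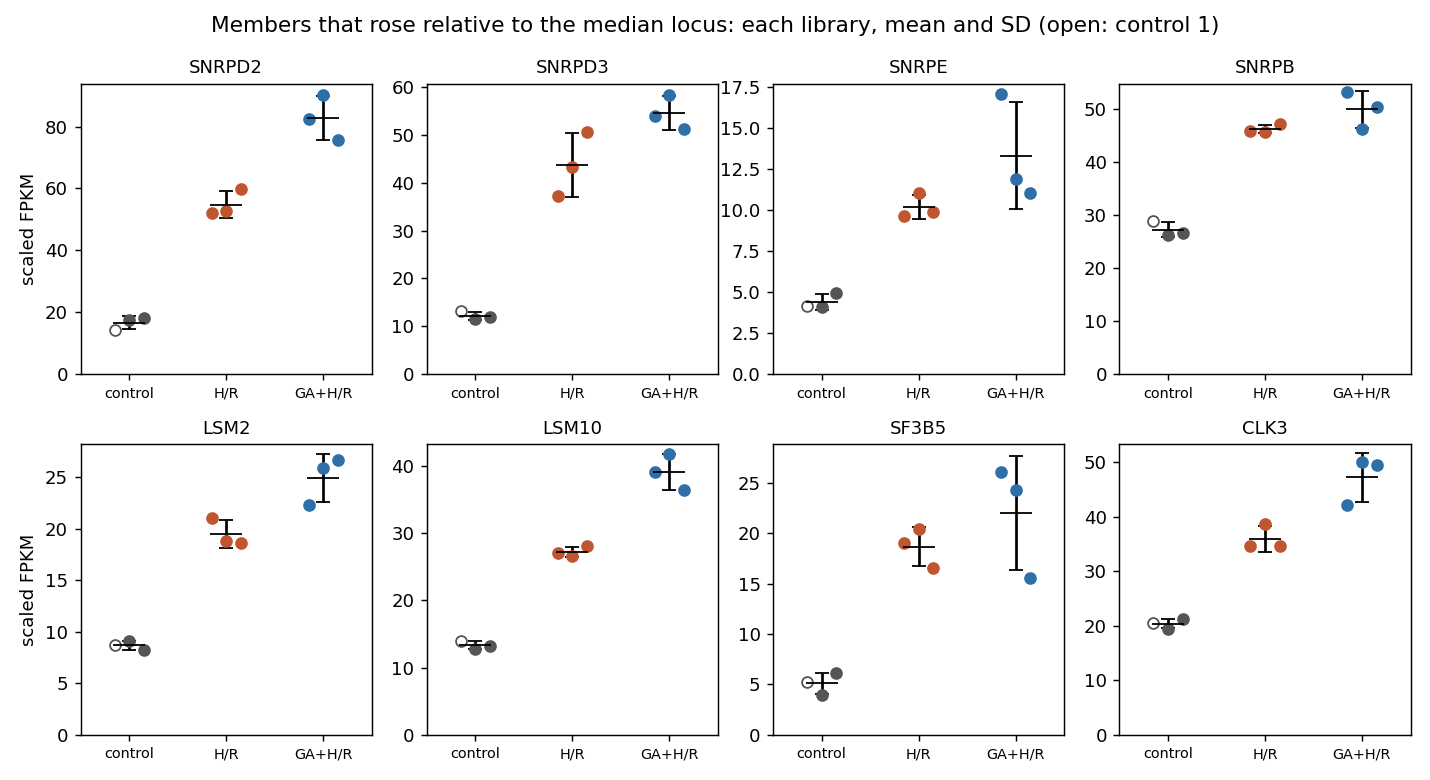
Each panel is a member that rose relative to the median locus in H/R minus control, with scaled FPKM on the vertical axis from 0 and the 3 groups along the horizontal axis. Points are libraries (control 1 open), the long line is the mean and the bars are 1 SD (n = 3); SNRPD2 lies at 14.2, 17.5 and 18.1 in control and 82.4, 90.1 and 75.7 in GA+H/R. On the deposited scale the changes of CLK3, SNRPB, SNRPE, LSM2 and LSM10 in H/R minus control had a negative sign, whether or not they passed the test.

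LSM proteins form rings that bind U6 RNA or take part in mRNA decay, and others of the family sit in the U7 particle or in P-bodies. Of 10 tested, 4 rose and 2 fell in H/R minus control (median 0.38; deposited -0.83), and 4 rose and 0 fell in GA+H/R minus H/R (median 0.20; deposited -0.53). LSM2, of the U6 ring, read 8.75, 9.08 and 8.20 in the controls, 21.1, 18.8 and 18.6 after H/R and 22.3, 25.8 and 26.6 in the GA+H/R libraries. It rose by 1.08 ± 0.10 (SE, adjusted p = 2.19e-05, -0.28 on the deposited scale) in H/R minus control and rose by 0.34 ± 0.10 (SE, adjusted p = 0.0272, -0.29 on the deposited scale) in GA+H/R minus H/R. The second call was lost in 4 of the 9 fits that left out a library (H/R 2, H/R 3, GA+H/R 2 or GA+H/R 3, adjusted p = 0.0704 to 0.0860). It was also lost with the replicate number as a block (0.34, adjusted p = 0.0577), in a fit of only the 2 groups compared (0.28, adjusted p = 0.0536) and with equal FPKM totals (0.26, adjusted p = 0.147). Of the 5 tested U6 ring genes, LSM2 rose with H/R and LSM4, LSM5, LSM6 and LSM8 did not pass. LSM4 gave -0.06 (deposited -1.30) with all libraries and was called lower without control 1 (-0.28, adjusted p = 0.0481). LSM8 gave 0.47 (deposited -0.83) and was called higher without H/R 3 (0.65, adjusted p = 0.0145).

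LSM10 and LSM11 replace a pair of Sm proteins in the U7 particle that matures histone mRNAs. LSM10 read 13.9, 12.8 and 13.2 in the controls, 27.00, 26.6 and 28.1 after H/R and 39.04, 41.7 and 36.4 in the GA+H/R libraries. It rose by 0.98 ± 0.08 (SE, adjusted p = 1.15e-05, -0.41 on the deposited scale) in H/R minus control and rose by 0.50 ± 0.08 (SE, adjusted p = 0.00176, -0.14 on the deposited scale) in GA+H/R minus H/R. LSM11 read 24.04, 21.1 and 23.3 in the controls, 17.9, 13.4 and 16.3 after H/R and 13.8, 12.7 and 18.1 in the GA+H/R libraries. It fell by 0.51 ± 0.15 (SE, adjusted p = 0.0165, -1.90 on the deposited scale) in H/R minus control, a call lost without H/R 2 (adjusted p = 0.0612), and gave -0.10 ± 0.15 (SE, adjusted p = 0.651, -0.68 on the deposited scale) in GA+H/R minus H/R. LSM14A, a P-body protein, read 211, 184 and 181 in the controls, 166, 167 and 153 after H/R and 196, 206 and 218 in the GA+H/R libraries. It fell by 0.24 ± 0.08 (SE, adjusted p = 0.0221, -1.69 on the deposited scale) in H/R minus control and rose by 0.35 ± 0.08 (SE, adjusted p = 0.00776, -0.31 on the deposited scale) in GA+H/R minus H/R. The first change was -0.16 without control 1 and lost its call without H/R 3 (adjusted p = 0.0757) and under quantile normalization (-0.08, adjusted p = 0.404). The second lost its call with equal FPKM totals (0.26, adjusted p = 0.108). At the first step LSM12 (0.63, deposited -0.81) and LSM14B (0.47, deposited -0.94) also rose, with the reverse sign on the deposited scale. LSM14B had no call with equal FPKM totals (0.19, adjusted p = 0.108). LSM6 rose in GA+H/R minus H/R (0.48), at scaled FPKM of 0.608, 0.633 and 0.503 in H/R and 1.08, 1.30 and 1.25 in GA+H/R. It lay below 1 in all 6 control and H/R libraries and was tested because its GA+H/R libraries reach the filter of 1, so it had to differ. Its place among the 4 LSM genes that rose at this step supports nothing. It did not pass the filter on the deposited scale, with equal FPKM totals or without any one control or GA+H/R library.

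The contrast between the SR and SR-like genes and the Sm and snRNP genes does not depend on the scale between libraries, since both are read in the same library. For the 14 SR and SR-like genes and the 11 Sm and snRNP genes with FPKM above 0 in all 9 libraries, each gene's log2 FPKM was centred on its own mean and the medians of the lists were subtracted. The 14 include the joined locus SRSF1;VEZF1. The 11 include the joined locus SNRPN;SNURF and SNRPF, which passed the filter through H/R and GA+H/R, where it is high. The SR median less the Sm median was 1.29, 1.02 and 1.03 in the control libraries. After H/R it was -0.26, -0.29 and -0.32, and with gallic acid added -0.73, -0.88 and -0.75. The groups did not overlap, and the SR and SR-like genes were lowest relative to the Sm and snRNP genes in GA+H/R. No test is given for this value, because the lists were set with earlier results in view.

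**Figure D4:**
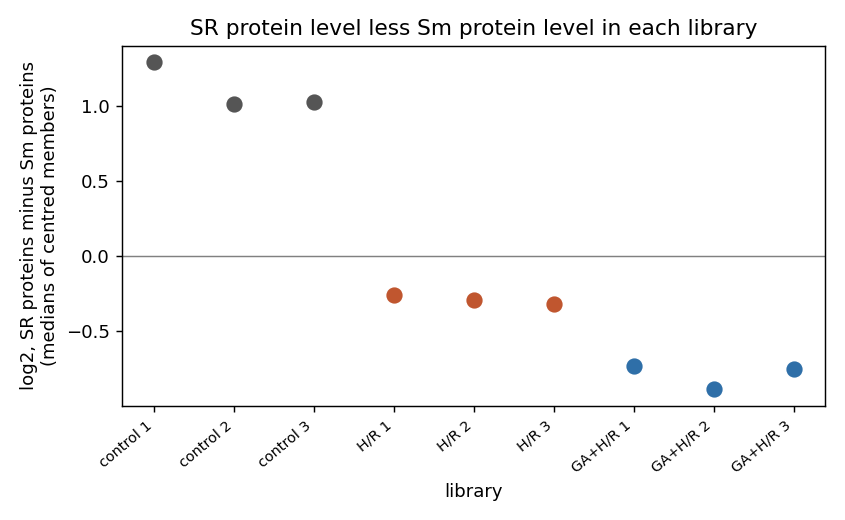
The horizontal axis gives the 9 libraries and the vertical axis the median centred log2 FPKM of 14 SR and SR-like genes less that of 11 Sm and snRNP genes. Each point is a library; the controls lie at 1.02 to 1.29, H/R at -0.32 to -0.26 and GA+H/R at -0.88 to -0.73.

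Other lists give these changes a scale. Ribosomal protein genes, whose mRNAs are short, had a median of 1.44 in H/R minus control (66 of 74 rose; deposited median 0.04) and 0.75 in GA+H/R minus H/R (63 rose; deposited 0.09). Proteasome subunits had medians of 0.60 (29 of 42 rose; deposited -0.82) and 0.28 (21 rose; deposited -0.34). A list of housekeeping genes with short mRNAs rose in 23 and 15 of 24 (medians 1.15 and 0.44; deposited -0.19 and -0.16). A list with long mRNAs fell in 27 and 24 of 33 (medians -0.45 and -0.39; deposited -1.90 and -1.02). The lists by length come from textbook knowledge, with no lengths in the files. The part of transcript length in the SR, Sm and LSM results was not tested. Macrophage markers also moved with the groups, at summed FPKM of 4.74 in control 1 and 65.6 and 76.0 in controls 2 and 3, against 19.6 to 22.9 after H/R and 146 to 152 with gallic acid added (10 of 13 markers were found). The filter left 6 of them, and 4 on the deposited scale, and all of these rose in GA+H/R minus H/R. A marker high only in GA+H/R can pass the filter through that group, so these counts support nothing. The part of the macrophage markers, and that of the lower fibroblast markers, was not tested.

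**Figure D5:**
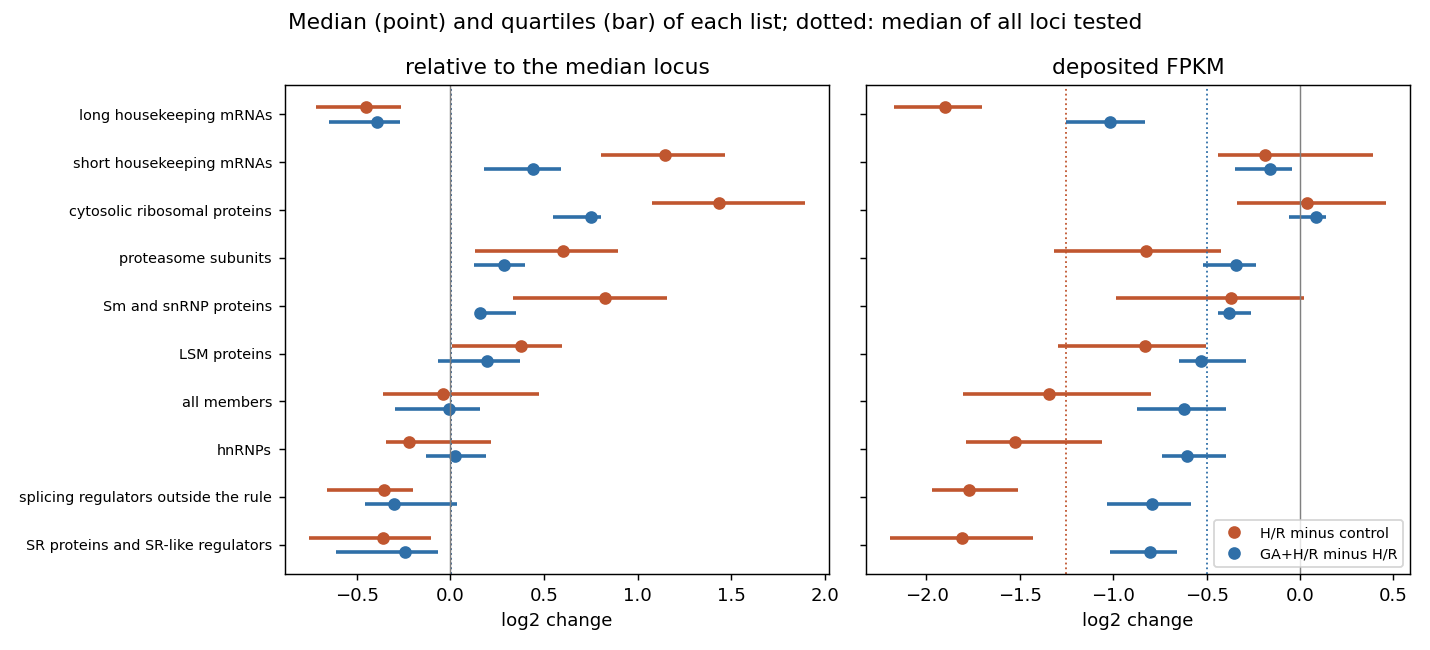
The horizontal axes are log2 changes, relative to the median locus on the left and in deposited FPKM on the right, and each row is a gene list. Points are list medians and bars their quartiles, in orange for H/R minus control and blue for GA+H/R minus H/R; dotted lines are the medians of all loci tested. SR proteins and SR-like regulators (median -0.36 in H/R minus control) lie beside the long housekeeping mRNAs (-0.45). Sm and snRNP proteins (0.82) lie between proteasome subunits (0.60) and short housekeeping mRNAs (1.15).

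Splicing genes outside the naming rule were read from lists by role. Of 123 such genes listed, 113 were in the table and 108 were tested: 28 rose and 43 fell in H/R minus control (median -0.09; deposited -1.44), and 19 rose and 33 fell in GA+H/R minus H/R (median -0.04; deposited -0.60). Among 44 further splicing regulators, 4 rose and 30 fell with H/R, and 4 rose and 21 fell with gallic acid added (medians -0.36 and -0.30; deposited -1.77 and -0.79). RBM5, an RNA-binding regulator of apoptosis genes, read 538, 458 and 460.2 in the controls, 246, 255 and 278 after H/R and 125, 129 and 128 in the GA+H/R libraries, and it fell by 0.90 ± 0.08 (SE, adjusted p = 1.44e-05, -2.36 on the deposited scale) and then fell by 1.02 ± 0.08 (SE, adjusted p = 3.30e-05, -1.67 on the deposited scale) at the second step. SRRM1 and SRRM2, SR-related matrix proteins of nuclear speckles, fell in GA+H/R minus H/R by 1.01 and 0.87 (deposited -1.60 and -1.50). In H/R minus control, SNRNP48 (-1.20, deposited -2.58), a minor spliceosome protein, QKI (-1.04, deposited -2.50), which also controls circular RNA formation, and RBM39 (-0.87, deposited -2.32) fell.

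Core proteins outside the rule went in both directions. Over all loci tested, 29.2% rose and 28.4% fell in H/R minus control, and 18.7% and 15.2% in GA+H/R minus H/R. Of 25 tri-snRNP, U1 and minor snRNP proteins, 10 rose and 5 fell in H/R minus control, and 6 rose and 8 fell in GA+H/R minus H/R. Of 23 proteins of the Prp19 complex and the catalytic step, 9 rose and 5 fell, and then 4 and 3. In H/R minus control, PRPF31 (1.15, deposited 0.15), ZMAT5 (1.11, deposited -0.20), BCAS2 (1.06, deposited -0.35) and PHF5A (0.99, deposited -0.21) rose, and all but PRPF31 had the opposite sign on the deposited scale. ZMAT5, of the minor spliceosome, read 4.82, 6.78 and 5.20 in the controls, 12.5, 13.5 and 13.4 after H/R and 22.01, 27.3 and 28.99 in the GA+H/R libraries, and rose by 0.93 ± 0.14 (SE, adjusted p = 0.00128, 0.29 on the deposited scale) in GA+H/R minus H/R. In the same comparison PHF5A (0.68, deposited 0.07), GEMIN6 (0.66, deposited 0.09) and BCAS2 (0.56, deposited -0.09) rose and the joined locus RNPC3;LOC100343733 (-1.06, deposited -1.54) fell. The calls for GEMIN6, BCAS2 and RNPC3 were lost in 5, 3 and 6 of the 9 fits that left out a library. GEMIN6 changed by 0.41 without H/R 2 (adjusted p = 0.0879), BCAS2 by 0.37 without GA+H/R 2 (adjusted p = 0.0283) and RNPC3;LOC100343733 by -0.70 without GA+H/R 2 (adjusted p = 0.0841). The 12 snRNP assembly genes gave 3 higher and 2 lower, then 4 and 1, and the 4 exon junction complex genes 2 and 1, then 1 and 0. The table's own KEGG annotation puts 42 members and 219 other loci in the spliceosome pathway. Of the others, 134 were tested, and 54 rose and 28 fell in H/R minus control (median 0.22; deposited -1.10), then 21 rose and 23 fell in GA+H/R minus H/R (median 0.06; deposited -0.44).

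Set directly against control, GA+H/R differed by up to 2.46 log2 units among these genes. Of the members, 23 had a call and a log2 change of 1 or more (11 higher and 12 lower), 31.5% beside 28.2% of all loci; in H/R minus control there were 12 (7 higher and 5 lower), 16.4% beside 14.8%. Among SR proteins and SR-like regulators 13 of 15 fell and 0 rose (median -0.70; deposited -2.79). Of those 13 calls, that for SRSF2 was lost in 5 of the 9 fits that left out a library (each control, GA+H/R 1 or GA+H/R 2, adjusted p = 0.0509 to 0.0716). The call for SRSF3 was lost in 4 (control 2, control 3, GA+H/R 1 or GA+H/R 3, adjusted p = 0.0733 to 0.112) and that for TRA2A in 4 (each control or GA+H/R 3, adjusted p = 0.0581 to 0.0873). The value of TRA2A without GA+H/R 3 was -0.19, adjusted p = 0.0805. Under quantile normalization SRSF3 and TRA2A had no call (adjusted p = 0.124 and 0.111). The 11 Sm and snRNP proteins all rose relative to the median locus (median 0.98), but on the deposited scale 0 were higher and 8 lower (median -0.77), and with equal FPKM totals 7 were higher. SNRPF is counted among the 11, and the filter favoured its rise. The largest falls were those of CCNL1 (-2.46, deposited -4.56), SRSF11 (-2.38, deposited -4.50), SFPQ (-2.11, deposited -4.08), OGT (-2.08, deposited -4.19), PAXBP1 (-1.79, deposited -3.83) and CLK4 (-1.51, deposited -3.48). The largest increases were those of SNRPD2 (2.25, deposited 0.19), SNRPD3 (2.07, deposited 0.03), SF3B5 (1.90, deposited -0.02), LSM10 (1.48, deposited -0.55), LSM2 (1.42, deposited -0.56) and SNRPE (1.39, deposited -0.47), none of which was called higher on the deposited scale. Further genes past 1 log2 unit included HNRNPM (-1.43, deposited -3.42), SF3B1 (-1.22, deposited -3.31), TRA2B (-1.20, deposited -3.30), SRSF5 (-1.15, deposited -3.24) and SON (-1.13, deposited -3.25), and, higher, CLK3 (1.17, deposited -0.88), HNRNPA1 (1.16, deposited -0.91) and SF3B4 (1.01, deposited -0.96).

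Between replicates, the median coefficient of variation of the 73 members was 9.34%, 5.11% and 7.91% in control, H/R and GA+H/R, beside 11.5%, 8.32% and 11.2% over all loci tested. Without control 1 the member counts were 25 higher and 27 lower (H/R minus control), 11 and 21 (GA+H/R minus H/R) and 31 and 30 (GA+H/R minus control). In GA+H/R minus control, members called without it and not with all libraries were HNRNPF (0.18, adjusted p = 0.00144), HNRNPH3 (0.34, adjusted p = 0.0107), SF3A1 (0.26, adjusted p = 0.041) and LSM14A (0.18, adjusted p = 0.0219), all higher, and LSM4 (-0.48, adjusted p = 0.0035), lower. There SRSF2, TRA2A and LSM8 (0.50, adjusted p = 0.0609) lost their call without it. Some values are uncertain because other loci carry the same protein description, as retrocopies of these genes do, and reads may be split between them. Such loci were found for 28 members, 78 loci in all, of which 25 (for 14 members) reached a mean of 1 FPKM. HNRNPA1 had 14 and HNRNPC had 7, and for SRSF10, HNRNPC and HNRNPH2 the strongest of them reached 102%, 146% and 121% of the member's own mean FPKM. The values of HNRNPA1, HNRNPA3, HNRNPC, HNRNPH2, SNRPG and SRSF10 are therefore less certain than the rest.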

How the data were processed

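RNA-seq libraries (3 control, 3 H/R, 3 GA+H/R) were made from total RNA, per the labels' protocols. The authors deposited FPKM per assembled locus, per the file headers; the aligner, the quantifier and any scaling between libraries are steps not given in the sources used here. Only mouse genome builds are named in the submitters' processing notes, while the transcripts listed are rabbit, so no coordinates are given. The p-values and q-values of the authors' deposited test across groups were not used. Sequencing depth is unknown, so no counting error is given.

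FPKM was divided, library by library, by the median ratio to the mean library (8448 loci, each reaching 1 FPKM in all 9), loci at 1 or more in 3 libraries were kept, and log2(scaled FPKM + 1) of 10956 loci was fitted in limma 3.58.1 (R 4.3.3; trend and robust settings, 3 groups sharing one spread, two-sided). P-values were Benjamini-Hochberg adjusted over all loci, with calls at 0.05. On simulated data for GA+H/R minus H/R (11330 loci), 30 of 100 loci shifted by 0.5 and 76 of 100 shifted by 1 (log2) were recovered, and 4 of 110 calls were false. No other loci were shifted, low loci were left out of the shifts, and the noise was independent between loci. In the data 33.9% of all loci were called in this comparison, so these rates are no estimate for the results above.

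Members, role lists and other lists were chosen with earlier results of these data known. Named genes were, per role and comparison, up to 3 higher and 3 lower with the largest called change and groups that did not overlap, plus 16 genes named whatever their change (CLK1, CLK4, CCNL1, CCNL2, SRSF3, SRSF5, SRSF7, TRA2A, TRA2B, SON, LUC7L3, SF3B1, OGT, PAXBP1, SFPQ and NONO), up to 4 each way from the other splicing lists, and further members given to complete a list. Alternatives covered scaling, pseudocount, filter, the fit, the replicate number as a block and leaving out each library. U2AF1, U2AF2, SF3A2, SF3A3 and SRSF8 were not analysed here.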

Additional observations from a re-analysis of the deposited data

How the results depend on the processing

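Changes of 129 named genes and comparisons (105 of members, 24 of other splicing genes) were recomputed under 18 alternatives, each of which could fit 125 to 129 of them. The scale between libraries moved the member counts and reversed 44 of the recomputed values. On the deposited FPKM, the members called were 3 higher and 64 lower in H/R minus control (median -1.35), 0 and 60 in GA+H/R minus H/R (median -0.62) and 0 and 67 in GA+H/R minus control (median -1.98). The 42 named changes that turned negative on that scale were, in H/R minus control, CLK3 (-0.62), PSPC1 (-0.55), SF3B2 (-0.49), SF3B4 (-0.51), HNRNPA1 (-0.37), HNRNPUL1 (-0.85), HNRNPA0 (-0.89), LSM2 (-0.28), LSM10 (-0.41), LSM12 (-0.81), CCNL2 (-1.12), SRSF7 (-1.18), NONO (-1.43), ZMAT5 (-0.20), BCAS2 (-0.35) and PHF5A (-0.21), and in GA+H/R minus H/R, CLK3 (-0.26), SF3B6 (-0.21), HNRNPAB (-0.27), HNRNPA3 (-0.22), HNRNPF (-0.34), SNRPD2 (-0.070), SNRPB2 (-0.11), LSM10 (-0.14), LSM14A (-0.31), NONO (-0.64) and BCAS2 (-0.086), and in GA+H/R minus control, CLK3 (-0.88), PSPC1 (-1.53), SF3B5 (-0.025), SF3B4 (-0.96), SF3B2 (-1.19), HNRNPA1 (-0.91), HNRNPA0 (-1.28), HNRNPAB (-1.39), SNRPE (-0.47), LSM10 (-0.55), LSM2 (-0.56), NONO (-2.07), PHF5A (-0.13), BCAS2 (-0.43) and BUD31 (-0.39). With equal FPKM totals the medians were -0.28, -0.091 and -0.36, the members called higher were 5 in GA+H/R minus H/R and 17 in GA+H/R minus control, and NONO turned to -0.26 in H/R minus control and -0.33 in GA+H/R minus control. Other settings that moved a median by more than the spread between replicates were leaving out control 3 (0.019 in H/R minus control), no filter on low values (0.0090 in H/R minus control and 0.067 in GA+H/R minus control), quantile normalization (-0.058 in GA+H/R minus H/R) and a fit of only the 2 groups compared (-0.053 in GA+H/R minus H/R). By construction the first of these scales removes the division by the median ratio; for the rest the cause was not tested. Leaving out each library in turn reversed 0 of the named changes that had a call. Among those with no call, values near 0 changed sign for NONO, TRA2A and TRA2B, and CCNL2 in GA+H/R minus control went from -0.17 to 0.0036 without control 1. The members called then ranged from 22 to 25 higher and 22 to 27 lower in H/R minus control (median -0.054 to 0.019), from 10 to 12 and 14 to 21 in GA+H/R minus H/R (median -0.047 to 0.018), and from 25 to 31 and 28 to 31 in GA+H/R minus control (median -0.041 to -0.0017).

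Same-numbered libraries did not deviate together over all loci (r = -0.018 to 0.026 over 9 pairs, beside -0.025 to 0.031 over 18 other pairs). These values gave no sign of pairing by number, but they could miss a link that acts on few genes. With the replicate number as a block, the members called were 24 higher and 27 lower in H/R minus control, 11 and 16 in GA+H/R minus H/R, and 28 and 31 in GA+H/R minus control. Of the named changes, CCNL2, SF3B3 and GEMIN6 in GA+H/R minus H/R lost the call under the block, as did 2 further member calls, LSM2 in GA+H/R minus H/R (adjusted p = 0.0577) and HNRNPK in GA+H/R minus control (adjusted p = 0.0507). Fits that remove a trend on protein length, alone or with the block, were not run, since no protein lengths were at hand. Depth is unknown, and members below the filter could not be called.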
